A study of Mus musculus with 14 samples.

Results

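The cytochrome P450 family was followed through 14 mouse lungs taken 6 months after the animals had been given carbon fibre or saline by way of the trachea. Its members are the genes whose symbol has the form Cyp, a number, a letter group and a number, found through the RefSeq transcript that each array probe names. There were 72 such genes, read by 97 probes, among 17178 genes with a named probe. The table of mouse genes used for the names (RefSeq, assembly GRCm38.p6) lists 95 symbols of this form.

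The animals were male C57BL/6N mice, and their age is not given in the labels. Every fibre group had received 200 µg of carbon fibre per mouse. VCF (4 lungs) received fibre as it was before recycling, CCF (3 lungs) fibre taken after the carbonization step and RCF (4 lungs) fibre taken after the firing step. Ctrl (3 lungs) received phosphate-buffered saline, the vehicle. The design text calls the samples of each group independent biological samples, and each lung was hybridized to its own 1-colour Agilent array. The comparisons ask how the family's transcripts differ after each form of fibre from those after saline, and between the forms of fibre.

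Cytochrome P450 enzymes are haem proteins that insert oxygen into their substrates, with electrons passed on by a reductase at the endoplasmic reticulum or by ferredoxin in mitochondria. Many act on foreign chemicals, and others build or clear steroids, bile acids, vitamin D, retinoic acid and fatty acids. In the mouse airway the club cells of the bronchiolar lining are rich in such enzymes, and Cyp2f2 in these cells activates the lung toxicant naphthalene. Cyp1a1 and Cyp1b1 are induced through the aryl hydrocarbon receptor, which binds polycyclic aromatic hydrocarbons and other planar compounds. Several P450 genes lie in clusters of close copies, and 14 of the 72 genes lie on chromosome 7, 12 on chromosome 19 and 11 on chromosome 4 in the RefSeq table.

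The sequences shown are the 250 bases before the annotated start of 6 members on which the results turn, on the gene's own strand, 5′ to 3′, from RefSeq on GRCm38.p6. The first pair belongs to the aryl hydrocarbon receptor targets, and capitals mark the core of that receptor's DNA element, GCGTG, searched on both strands. Cyp1a1 lies on the plus strand (chr9:57697363-57697612) and Cyp1b1 on the minus strand (chr17:79715062-79715311), where the match reads on the opposite strand.
Cyp1a1: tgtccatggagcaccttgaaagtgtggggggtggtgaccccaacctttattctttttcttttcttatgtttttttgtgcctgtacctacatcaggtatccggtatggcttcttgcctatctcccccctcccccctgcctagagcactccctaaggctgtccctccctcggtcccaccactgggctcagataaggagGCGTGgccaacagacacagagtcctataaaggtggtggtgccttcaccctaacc
Cyp1b1: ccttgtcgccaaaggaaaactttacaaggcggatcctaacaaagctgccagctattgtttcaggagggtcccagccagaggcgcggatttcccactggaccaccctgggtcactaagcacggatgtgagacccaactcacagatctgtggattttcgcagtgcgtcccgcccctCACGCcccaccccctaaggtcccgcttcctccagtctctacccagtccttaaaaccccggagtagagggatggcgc
GCGTG was present on either strand of this window in 28.2% of all 32851 promoters in the table and in 12 of the 56 P450 genes that had a promoter there. The letters TATAAA, also searched on both strands, were present in 12.4% of all promoters and in 22 of the 56 P450 genes. These matches describe letters and not bound sites.

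The other 2 pairs are close copies on chromosome 7 whose array values are set side by side further on. They are Cyp2a4 (chr7:26306942-26307191) with Cyp2a5 (chr7:26835089-26835338), and Cyp2b9 (chr7:26173159-26173408) with Cyp2b13 (chr7:26061245-26061494), all on the plus strand. Capitals mark the bases at which the 2 members of a pair differ.
Cyp2a4: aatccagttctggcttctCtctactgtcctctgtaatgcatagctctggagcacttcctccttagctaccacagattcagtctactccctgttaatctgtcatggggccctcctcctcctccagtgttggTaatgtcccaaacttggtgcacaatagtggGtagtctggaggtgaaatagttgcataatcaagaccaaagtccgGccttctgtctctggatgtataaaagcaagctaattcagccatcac
Cyp2a5: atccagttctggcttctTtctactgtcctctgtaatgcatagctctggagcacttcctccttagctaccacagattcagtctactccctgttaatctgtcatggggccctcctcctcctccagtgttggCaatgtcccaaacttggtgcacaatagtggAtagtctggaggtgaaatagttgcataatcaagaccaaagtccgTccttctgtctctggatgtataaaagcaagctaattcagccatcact
Cyp2b9: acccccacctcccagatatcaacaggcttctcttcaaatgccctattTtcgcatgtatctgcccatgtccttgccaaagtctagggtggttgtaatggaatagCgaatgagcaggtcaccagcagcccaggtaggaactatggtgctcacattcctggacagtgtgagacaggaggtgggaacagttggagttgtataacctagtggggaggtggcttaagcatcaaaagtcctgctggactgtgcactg
Cyp2b13: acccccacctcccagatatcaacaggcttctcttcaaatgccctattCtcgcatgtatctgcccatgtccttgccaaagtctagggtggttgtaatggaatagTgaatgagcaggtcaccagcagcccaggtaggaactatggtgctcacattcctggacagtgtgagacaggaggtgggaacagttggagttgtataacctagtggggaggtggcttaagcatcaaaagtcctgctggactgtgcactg
Cyp2a4 and Cyp2a5 were identical at 245 of 249 aligned positions (98.4%), and Cyp2b9 and Cyp2b13 at 248 of 250 (99.2%). The same window of Cyp2b10 was identical to that of Cyp2b9, and to that of Cyp2b13, at 186 of 256 aligned positions (72.7%).

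Levels are given as log2 of the processed intensity minus the 75th percentile of the array, so that 0 is that percentile and a difference of 1 is a 2-fold difference. That percentile ran from 724.7 to 1345.6 intensity units over the arrays, no spot was saturated, and the number of arrays limits the precision. The arrays lay on 4 slides and were scanned on 4 days. Slides 1 and 3 held every group, slide 2 no CCF array and slide 4 no Ctrl array. All 8 alveolar type 2 cell markers and all 8 club cell markers with a probe were well above background on every array. In a bulk lung sample, fewer cells of a type and less RNA per cell cannot be told apart. A level is compared between arrays and not between genes, since probes differ in how brightly they shine.

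Most of the family could be read in lung, though a smaller share of it than of all genes. Well above background is the scanner software's own flag, taken here at the probe of highest mean for each gene. By that flag 41 of the 72 genes stood above background on all 14 arrays, 9 on 5 to 13 arrays, 10 on 1 to 4 arrays and 12 on none. On 3 or more arrays it was 52 of the 72 genes, against 14466 of all 17178 genes with a named probe. All 8 genes of the airway-expressed list (Cyp2f2, Cyp4b1, Cyp2a4, Cyp2a5, Cyp2b10, Cyp2s1, Cyp2j6 and Cyp2j9) were above background on all 14. Of 29 liver-type genes with a probe, 13 were above background on all arrays, 3 on 5 to 13, 6 on 1 to 4 and 7 on none. The remaining 35 genes, mostly enzymes of steroids, retinoids, vitamin D and fatty acids, divided into 20, 6, 4 and 5. The genes above background on none of the arrays included Cyp7a1, the rate-limiting enzyme of bile acid synthesis, Cyp8b1, which acts later in that pathway, and Cyp1a2, a drug-metabolising enzyme of liver.

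**Figure D1:**
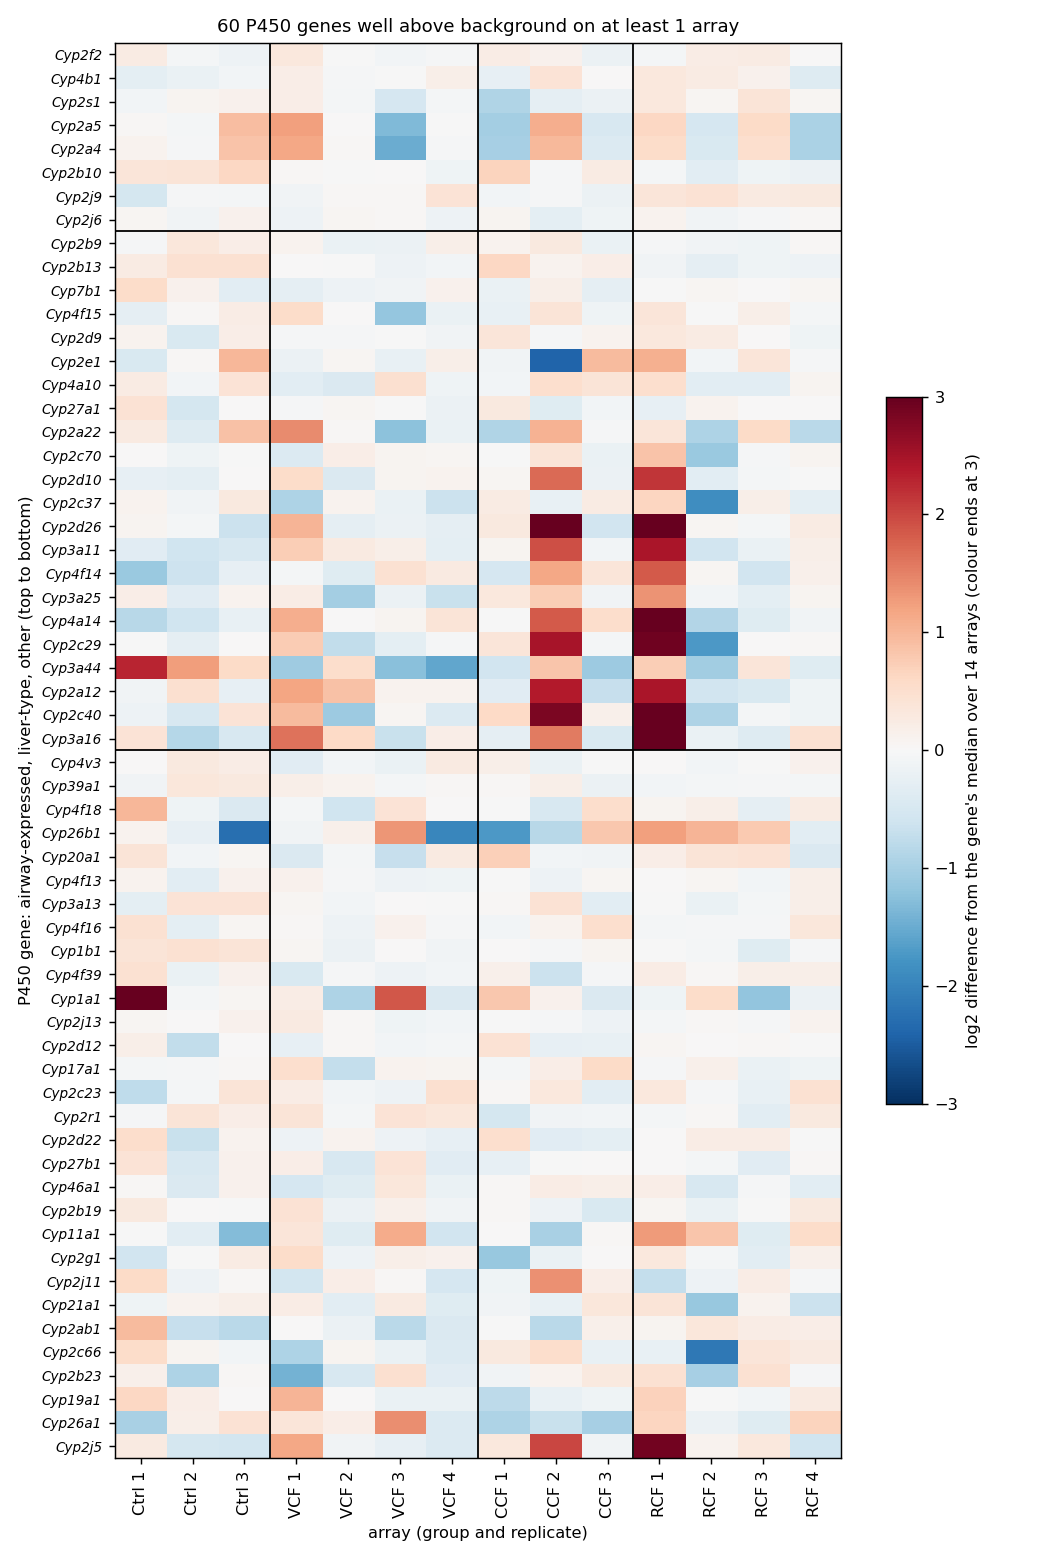
Level of each of the 60 P450 genes well above background on at least 1 array, drawn as the log2 difference from that gene's median over the 14 arrays (colour, limited at 3), with airway-expressed, liver-type and other genes in 3 blocks from top to bottom and arrays in columns by group. Most rows are pale, and the strongest colours are liver-type genes on CCF replicate 2 and RCF replicate 1 and Cyp1a1 on Ctrl replicate 1.

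No P450 gene passed in any comparison between groups. The test was a limma fit of all 14 arrays in which a gene passes at an adjusted p under 0.05 (Benjamini-Hochberg, over 29271 probes), and 52 of the 72 P450 genes entered it. To enter, a probe had to stand above background on 3 or more of the 14 arrays, whatever their group. Among all 14466 genes tested the percentage that passed was 0.00691 for VCF against Ctrl and 0 for each of the other 5 pairs and for the moderated F test across the 4 groups. At an unadjusted p under 0.05 the F test named 5 of the 52 P450 genes (Cyp1b1, Cyp2b10, Cyp2b13, Cyp2j9 and Cyp2s1), against 5.57% of all genes, and their smallest limma adjusted p was 0.44. The 3 comparisons with saline share the same 3 Ctrl arrays, so values that look alike across them are not independent of each other.

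The airway-expressed genes are taken first. Cyp2f2, the naphthalene-activating enzyme of club cells (probe A_51_P453909), stood at 8.30, 7.98 and 7.89 in Ctrl, at 8.36, 8.03, 7.96 and 8.02 in VCF, at 8.27, 8.18 and 7.87 in CCF and at 7.98, 8.26, 8.30 and 8.07 in RCF. The 14 lungs spanned 0.49 in all, and the groups overlapped throughout. Its difference from Ctrl was 0.03 in VCF (SE 0.15), 0.05 in CCF (SE 0.16) and 0.09 in RCF (SE 0.15), each smaller than its standard error (SE, from limma).

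Cyp4b1, which activates the lung toxicant ipomeanol, read 5.93, 6.01 and 6.14 in Ctrl and 6.41, 6.18, 6.20 and 6.39 in VCF. It read 5.98, 6.63 and 6.23 in CCF and 6.53, 6.45, 6.34 and 5.82 in RCF. The 4 VCF lungs lay above the 3 Ctrl lungs, while CCF and RCF overlapped with Ctrl. The differences of 0.27 in VCF (SE 0.18), 0.25 in CCF (SE 0.20) and 0.26 in RCF (SE 0.18) had unadjusted p of 0.169, 0.225 and 0.179 in limma.

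Cyp2s1, an enzyme of airway and other epithelia, stood at 5.75, 5.92 and 5.98 in Ctrl, at 6.03, 5.79, 5.33 and 5.78 in VCF and at 6.17, 5.90, 6.23 and 5.91 in RCF. In CCF it stood at 4.95, 5.57 and 5.68, below every Ctrl and every RCF lung. CCF minus Ctrl was -0.48 (SE 0.21, limma adjusted p = 0.741) and RCF minus CCF was 0.65 (SE 0.20, limma adjusted p = 0.479), so neither passed. Without CCF replicate 1, the lowest lung, these became -0.26 and 0.43. The club cell marker score described further on was -2.02 on that array, the lowest of all, and its part in the Cyp2s1 value was not tested.

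Cyp2j9, an enzyme that oxidises arachidonic acid, read 0.03, 0.51 and 0.49 in Ctrl, 0.46, 0.59, 0.58 and 0.97 in VCF, 0.48, 0.53 and 0.39 in CCF and 0.92, 0.99, 0.81 and 0.85 in RCF. The 4 RCF lungs lay above all Ctrl and all CCF lungs and overlapped with VCF. The RCF minus Ctrl difference was 0.55 (SE 0.15, limma adjusted p = 0.546) and RCF minus CCF was 0.43 (SE 0.15, limma adjusted p = 0.541). Its relative Cyp2j6, which acts on the same kind of substrate, varied by 0.42 over the 14 lungs, from -0.70 in CCF replicate 2 to -0.28 in Ctrl replicate 3. Another probe of Cyp2j6 (A_52_P231292) spanned 0.78 and departed from the first by up to 0.54 after both were centred. At that probe all CCF lungs lay below all VCF lungs, with a difference of -0.39 (SE 0.20, limma adjusted p = 0.873).

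**Figure D2:**
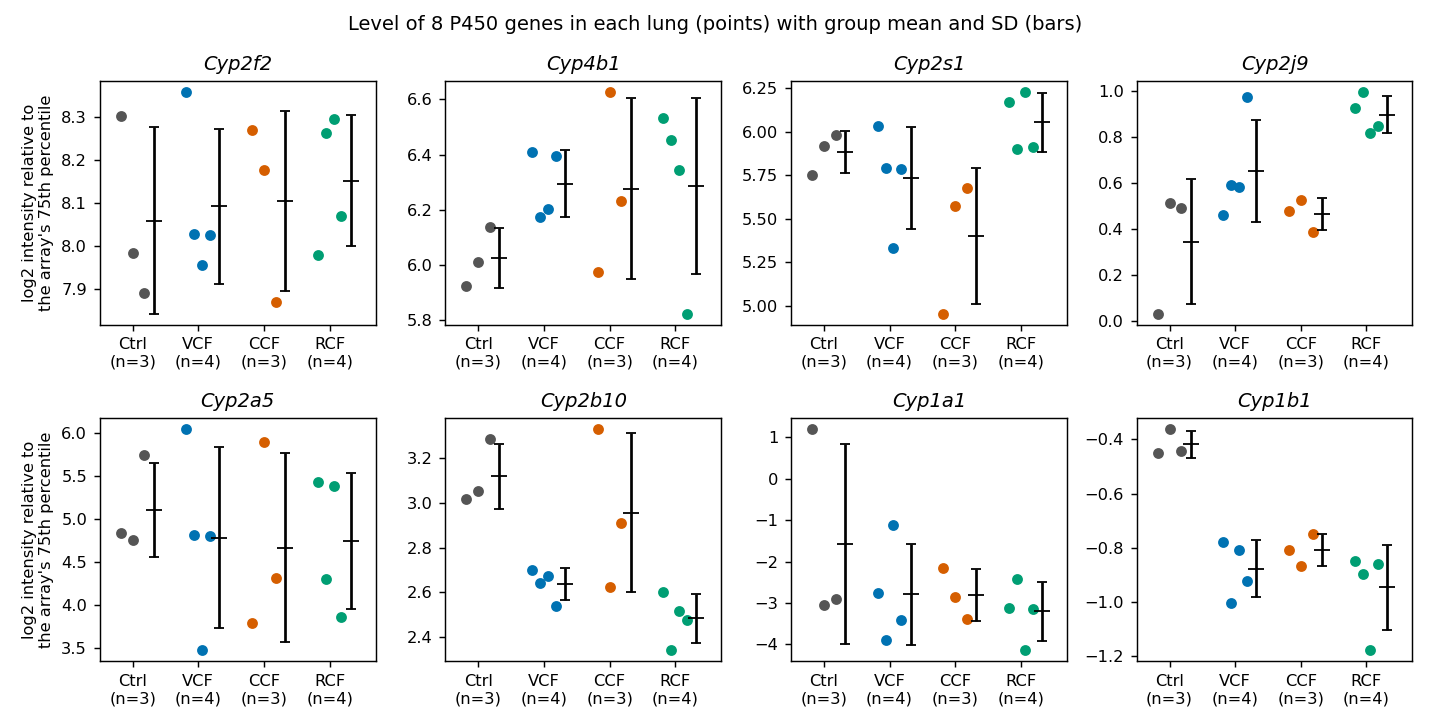
Level of 8 P450 genes in each lung (points, log2 intensity relative to the array's 75th percentile) for Ctrl (n = 3), VCF (n = 4), CCF (n = 3) and RCF (n = 4), with the group mean and SD as a bar beside the points and a separate vertical scale per gene. Cyp1b1 is the only gene of the 8 in which all 11 fibre lungs lie below the 3 Ctrl lungs, and 1 Ctrl lung sets the spread of Cyp1a1.

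Cyp2b10, an enzyme induced by phenobarbital through the receptor CAR, was lower in the VCF and RCF lungs than in the saline lungs by an amount that missed the test. It read 3.02, 3.05 and 3.28 in Ctrl, 2.70, 2.64, 2.68 and 2.54 in VCF, 3.33, 2.62 and 2.91 in CCF and 2.60, 2.34, 2.52 and 2.48 in RCF. All VCF and RCF lungs lay below all Ctrl lungs, and CCF overlapped with Ctrl. VCF minus Ctrl was -0.48 (SE 0.15, limma adjusted p = 0.390), RCF minus Ctrl was -0.63 (SE 0.15, limma adjusted p = 0.433) and RCF minus CCF was -0.47 (SE 0.15, limma adjusted p = 0.512). CCF minus Ctrl was -0.16 (SE 0.16). Without CCF replicate 1, the highest CCF lung, RCF minus CCF was -0.28.

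The brightest probe of Cyp2b13, a close relative listed here with the liver-type genes (A_51_P492339), gave nearly the same values as that of Cyp2b10. After each probe's mean over the 14 arrays was taken off, the widest gap between them on any array was 0.16, while the probes themselves spanned 0.90 and 0.99. Cyp2b13 read 3.80, 4.01 and 4.02 in Ctrl, 3.56, 3.56, 3.41 and 3.48 in VCF, 4.18, 3.66 and 3.76 in CCF and 3.46, 3.28, 3.43 and 3.40 in RCF. Its differences were -0.44 for VCF minus Ctrl (SE 0.13, limma adjusted p = 0.355) and -0.55 for RCF minus Ctrl (SE 0.13, limma adjusted p = 0.386). Another probe of Cyp2b13 (A_52_P289091) departed from the first by up to 1.91 and gave -0.03 for VCF and -0.20 for RCF against Ctrl (SE 0.72 for both), with averages of the 2 probes at -0.24 and -0.38.

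Cyp2b9, whose promoter differs from that of Cyp2b13 at 2 of 250 positions, ran from 4.59 to 5.14 over the 14 lungs with all groups overlapping. At this probe, its brightest, the differences from Ctrl were -0.19 in VCF (SE 0.15), -0.11 in CCF (SE 0.16) and -0.22 in RCF (SE 0.15). Centred in the same way, this probe departed from Cyp2b13 by up to 0.45 and from Cyp2b10 by up to 0.48. Another probe of Cyp2b9 (A_52_P256914) departed from it by up to 0.73. That probe gave larger differences from Ctrl, -0.37 in VCF (SE 0.25), -0.18 in CCF (SE 0.26) and -0.50 in RCF (SE 0.25), with overlapping lungs. Transcript and probe sequences were not compared here, so the signal of a Cyp2b probe cannot be assigned with certainty to 1 gene.

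Cyp2a5, the coumarin hydroxylase of mouse, and its close copy Cyp2a4, a testosterone hydroxylase, varied more between lungs than any other airway-expressed gene. Cyp2a5 stood at 4.83, 4.75 and 5.74 in Ctrl, at 6.05, 4.81, 3.48 and 4.80 in VCF, at 3.79, 5.89 and 4.32 in CCF and at 5.43, 4.31, 5.38 and 3.86 in RCF. Each group held both high and low lungs, and the differences from Ctrl (-0.32 in VCF, -0.44 in CCF and -0.36 in RCF, SE 0.63, 0.67 and 0.63) were smaller than their errors. The brightest probes of Cyp2a4 and Cyp2a5 followed each other within 0.13 on every array, with spans of 2.65 and 2.57, so they cannot be read as separate measurements.

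The level of Cyp2a5 went together with that of club cell markers across lungs, and also with those of ciliated cell and adipocyte markers. The score is the mean over 8 markers of the difference from the Ctrl mean, and it ran from -2.02 in CCF replicate 1 to 1.10 in VCF replicate 1 with every group on both sides of 0. Over the 14 arrays Pearson's r with Cyp2a5 was 0.82 (permutation p = 0.00052, adjusted p = 0.00208 over 8 genes) and Spearman's rho was 0.78 (permutation p = 0.0017, adjusted p = 0.0068), two-sided with 100000 resamples. Without VCF replicate 3 and CCF replicate 1, the 2 lungs farthest from the median score, r was 0.71. Taken within groups r was 0.81 and within slides 0.85, and each slide holds too few arrays for an r of its own. On the 6 arrays below the widest gap in the score r was 0.83, and on the 8 above it 0.42. Scores of 8 marker lists were set against Cyp2a5 after the values had been seen. The cardiac muscle list was not among them, since a Ctrl array lacked the value of a marker, so its relation to Cyp2a5 was not tested. For ciliated cells r was 0.75 (permutation p = 0.00267, adjusted p = 0.0107 over 8 lists) and rho 0.70 (permutation p = 0.00751, adjusted p = 0.03). Without VCF replicates 1 and 4, the 2 lungs farthest from the median of that score, r was again 0.75, and it was 0.80 within groups and 0.70 within slides. For adipocytes r was 0.67 (permutation p = 0.0056, adjusted p = 0.0149) and rho 0.63 (permutation p = 0.019, adjusted p = 0.0507), with r at 0.50 without VCF replicate 1 and CCF replicate 1, 0.78 within groups and 0.60 within slides. For the other 5 lists r ran from -0.18 to 0.48 and rho from -0.02 to 0.44, with adjusted permutation p of 0.16 or more. Which of these markers Cyp2a5 follows was not tested.

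The probe of Cyp2a4, which follows that of Cyp2a5, had r = 0.83 (adjusted permutation p = 0.00208) and rho = 0.78 (adjusted permutation p = 0.0068) with the club cell score. Cyp2s1 had r = 0.65 (adjusted permutation p = 0.0237) and rho = 0.63 (adjusted permutation p = 0.0494), and r was 0.25 without the same 2 lungs, so the relation over all lungs rests on them. Taken within groups, with all 14 lungs, its r was 0.93, and within slides 0.69. On the 6 arrays of low score it was 0.72 and on the other 8 it was 0.37. Cyp4b1 had r = 0.41 and rho = 0.41 (adjusted permutation p = 0.293 and 0.29). For Cyp2f2, Cyp2b10, Cyp2j6 and Cyp2j9 r lay between -0.24 and -0.0013, rho between -0.22 and 0.04, and the smallest adjusted permutation p was 0.661. Whether these genes differ from Cyp2a5 in their relation to the score was not tested. The markers themselves did not move as a block. Scgb1a1, the secretoglobin that defines club cells, ran from 8.64 to 9.11, while Scgb3a1, a secretoglobin of larger airways, ran from 2.90 to 7.60 and Bpifa1, a secreted protein of the upper airway, from 0.24 to 6.47.

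**Figure D3:**
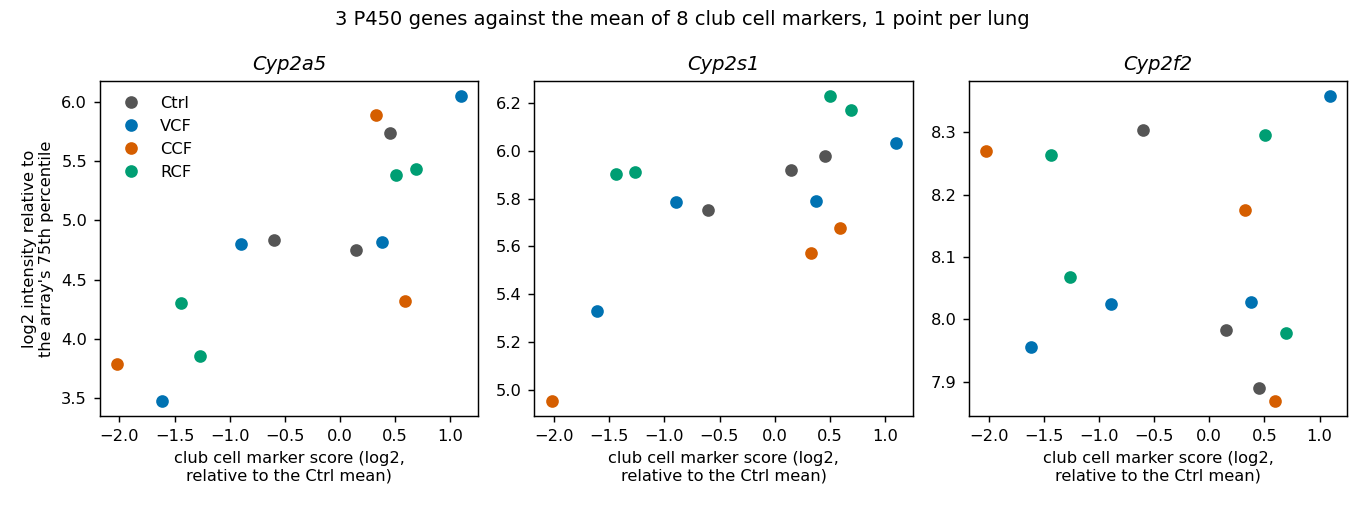
Level of Cyp2a5, Cyp2s1 and Cyp2f2 (log2 intensity relative to the array's 75th percentile) against the score of 8 club cell markers (log2, relative to the Ctrl mean), 1 point per lung coloured by group. Cyp2a5 is higher where the score is higher over the lungs of all groups (r = 0.82), while Cyp2f2 stays between 7.87 and 8.36 at every score.

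Among the targets of the aryl hydrocarbon receptor, Cyp1b1, which hydroxylates oestrogens and polycyclic hydrocarbons, was the P450 gene of smallest p in each comparison with saline. It read -0.45, -0.36 and -0.44 in Ctrl, -0.78, -1.005, -0.81 and -0.93 in VCF, -0.81, -0.87 and -0.75 in CCF and -0.85, -0.90, -1.18 and -0.86 in RCF. All 11 fibre lungs lay below all 3 saline lungs, and the fibre groups overlapped with each other. Of all genes tested, 3.25% lay fully below Ctrl in VCF, 6.15% in CCF and 4.68% in RCF. The share that did so in all 3 was not counted. The difference from Ctrl was -0.46 in VCF (SE 0.11, limma adjusted p = 0.294), -0.39 in CCF (SE 0.12, limma adjusted p = 0.637) and -0.53 in RCF (SE 0.11, limma adjusted p = 0.277), none past the threshold. Within slides 1, 2 and 3 the RCF lung differed from the Ctrl lung by -0.40, -0.50 and -0.73, and the VCF lung by -0.36, -0.56 and -0.56. In CCF the values within slides 1 and 3 were -0.30 and -0.36.

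Cyp1a1, the most inducible gene of this pathway, did not share that pattern. It stood at 1.21, -3.04 and -2.91 in Ctrl, at -2.75, -3.89, -1.11 and -3.41 in VCF, at -2.16, -2.85 and -3.40 in CCF and at -3.11, -2.42, -4.14 and -3.14 in RCF. Ctrl replicate 1 lay far above the other 2 saline lungs and above every fibre lung, while all fibre groups spanned the level of the other 2. The differences from Ctrl of -1.21 in VCF (SE 0.93), -1.22 in CCF (SE 1.00) and -1.62 in RCF (SE 0.93) became 0.18, 0.17 and -0.23 without that lung. On the same lung Nqo1, a quinone reductase induced by several pathways, stood at 2.02 against -0.14 to 0.72 elsewhere, and Ces1f, a carboxylesterase, at 2.71 against 1.12 to 2.07. Ahrr, the repressor of the receptor, stood there at -4.22 against -5.11 to -4.07, and Tiparp, another target, at 2.06 against 1.53 to 2.19. Nqo1, Ces1f and Ahrr were chosen after their values had been seen.

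**Figure D4:**
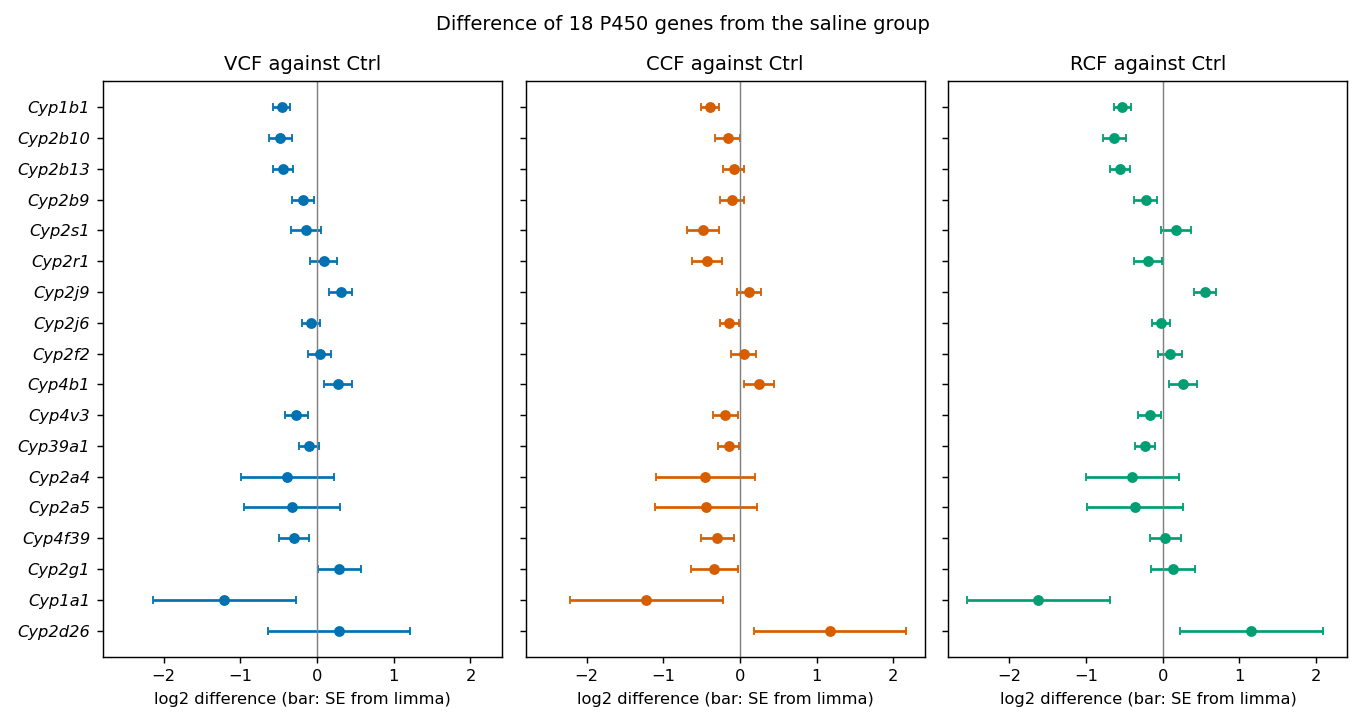
Difference of 18 P450 genes from Ctrl on the log2 scale (horizontal axis) in VCF, CCF and RCF, with the standard error from limma as a bar and a line at 0. Cyp1b1 lies below 0 in all 3 panels (-0.46, -0.39 and -0.53), and the widest bars belong to Cyp1a1 and Cyp2d26.

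The count of P450 genes at an unadjusted p under 0.05 was small in every comparison and is given beside the percentage over all 14466 genes. Against Ctrl, VCF had 0 of 52 higher (2.62% of all genes) and 3 lower (2.79%), namely Cyp1b1, Cyp2b10 and Cyp2b13. CCF had 0 higher (2.52%) and 3 lower (3.12%), namely Cyp1b1, Cyp2r1 and Cyp2s1. RCF had 2 higher (3.08%), Cyp11a1 and Cyp2j9, and 3 lower (3.03%), the same 3 as in VCF. The brightest probes of Cyp2b10 and Cyp2b13 followed each other closely, so they cannot be taken as independent readings. The median difference over the 52 genes was -0.10 in VCF, -0.01 in CCF and -0.01 in RCF, against -0.02, -0.04 and -0.0020 over all genes.

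Between the fibres, CCF against VCF had 1 higher (1.02%), Cyp2b13, and 2 lower (2.85%), Cyp2g1 and Cyp2r1. RCF against CCF had 2 higher (5.16%), Cyp2j9 and Cyp2s1, and 2 lower (2.69%), Cyp2b10 and Cyp2b13. RCF against VCF had 0 higher (1.77%) and 0 lower (1.28%) in limma, none passed after adjustment, and the genes of smallest p were Cyp3a25, Cyp4f39 and Cyp2j9. Cyp4f39, a fatty acid hydroxylase of the CYP4F group, differed by 0.33 (SE 0.18) and Cyp2j9 by 0.24 (SE 0.14). Cyp3a25, of the drug-metabolising CYP3A group, stood at -6.41, -7.66, -6.81 and -7.29 in VCF and at -5.29, -6.72, -6.94 and -6.55 in RCF, and was above background on no VCF array and 2 RCF arrays, which makes the RCF mean at least 1.24-fold higher. Without RCF replicate 1 no bound was left. Such bounds set the mean of the brighter group against, on each array of the dimmer group, the higher of the probe's own signal and the dimmest signal among probes that stood above background there. The mean of the brighter group takes all its arrays at their measured signal, also those where the probe was not above background. The bounds therefore rest in part on signals within the background, and they carry no standard error.

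Genes whose arrays lay fully apart between groups give a second count. In VCF against Ctrl 3 of 52 were apart upwards (3.3% of all genes) and 3 downwards (3.25%), in CCF against Ctrl 2 (3.37%) and 4 (6.15%), and in RCF against Ctrl 1 (4.75%) and 3 (4.68%). In CCF against VCF 1 was apart upwards (1.23%) and 1 downwards (2.6%), in RCF against VCF 2 (1.57%) and 0 (1.24%), and in RCF against CCF 2 (6.9%) and 2 (3.06%). The upward ones against Ctrl were Cyp4b1, Cyp3a11 and Cyp4a14 in VCF, Cyp3a11 and Cyp4a14 in CCF and Cyp2j9 in RCF. Cyp4a14 was above background on no Ctrl lung, on 2 of 4 VCF lungs and on 2 of 3 CCF lungs. It entered the test through fibre lungs only, so its place in this count is no separate support for a difference. Cyp2j13, apart downwards in CCF with Cyp1b1, Cyp2r1 and Cyp2s1, differed by only -0.13 (SE 0.12).

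Several liver-type genes had their highest values in the same few lungs, though not Cyp2b13, Cyp3a44 or Cyp2e1. Cyp2d26 (probe A_51_P120295), of the CYP2D drug-metabolising group, stood at -5.13, -5.27 and -5.86 in Ctrl, at -4.20, -5.48, -5.38 and -5.49 in VCF, at -4.91, -2.03 and -5.79 in CCF and at -1.68, -5.17, -5.26 and -4.96 in RCF. CCF replicate 2 and RCF replicate 1 were the high lungs, with VCF replicate 1 next, while the remaining lungs of all groups lay together. Its differences from Ctrl were 0.28 in VCF (SE 0.93), 1.18 in CCF (SE 0.99) and 1.16 in RCF (SE 0.93). Without CCF replicate 2 the CCF value was 0.07, and without RCF replicate 1 the RCF value was 0.29. Cyp2d10, of the same group, reached -2.94 and -2.50 on those 2 arrays against -5.08 to -4.09 on the others. A dimmer probe of Cyp2d10 (A_52_P527775) did not repeat this: it read -5.94 on CCF replicate 2 and -6.40 on RCF replicate 1, and -7.27 to -5.41 over all arrays. After centring, its widest gap to the first probe was 1.98, on RCF replicate 1, and its CCF minus Ctrl difference was 0.04 (SE 0.36) against 0.70 (SE 0.60).

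Liver-type genes at the edge of detection crossed the background there. Cyp2a12, a steroid hydroxylase, and Cyp2c40, of the CYP2C group, were above background on CCF replicate 2 and RCF replicate 1 only. Cyp2c29, also of the CYP2C group, was above background on these and RCF replicate 4, and Cyp3a16, of the CYP3A group, on RCF replicate 1 only. Cyp2c29 read -4.64 and -4.19 on the 2 high arrays against -8.82 to -6.34 elsewhere, and it was above background on 1 of 3 CCF lungs and on no Ctrl lung. The CCF mean was at least 1.61-fold above Ctrl, but that bound came from CCF replicate 2, and without it no bound was left. Cyp2c40 read -5.001 and -4.52 against -8.91 to -6.88. Cyp3a16 read -4.91 on RCF replicate 1 against -9.12 to -6.66 on the others. Of the 29 liver-type genes, 19 were above background on CCF replicate 2 and 21 on RCF replicate 1, against 13 to 18 on the other arrays. Of all probes, 64.4% were above background on CCF replicate 2 and 68.3% on RCF replicate 1, against 63.1% to 70.6% on the other arrays.

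Hepatocyte markers were high on the same arrays. Of 15 listed markers 13 had a probe, and all 13 were above background on CCF replicate 2 and on RCF replicate 1, against 6 to 10 elsewhere. Their score was 3.16 and 2.98 on these arrays and 0.99 on VCF replicate 1. In the groups it ran from -0.03 to 0.06 in Ctrl, from -0.04 to 0.99 in VCF, from 0.04 to 3.16 in CCF and from -0.25 to 2.98 in RCF. Alb, which encodes albumin, stood at 0.58 and 0.59 on the 2 high arrays and at -4.11 to -1.93 on the others. The part of these markers in the values of liver-type genes was not tested.

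**Figure D5:**
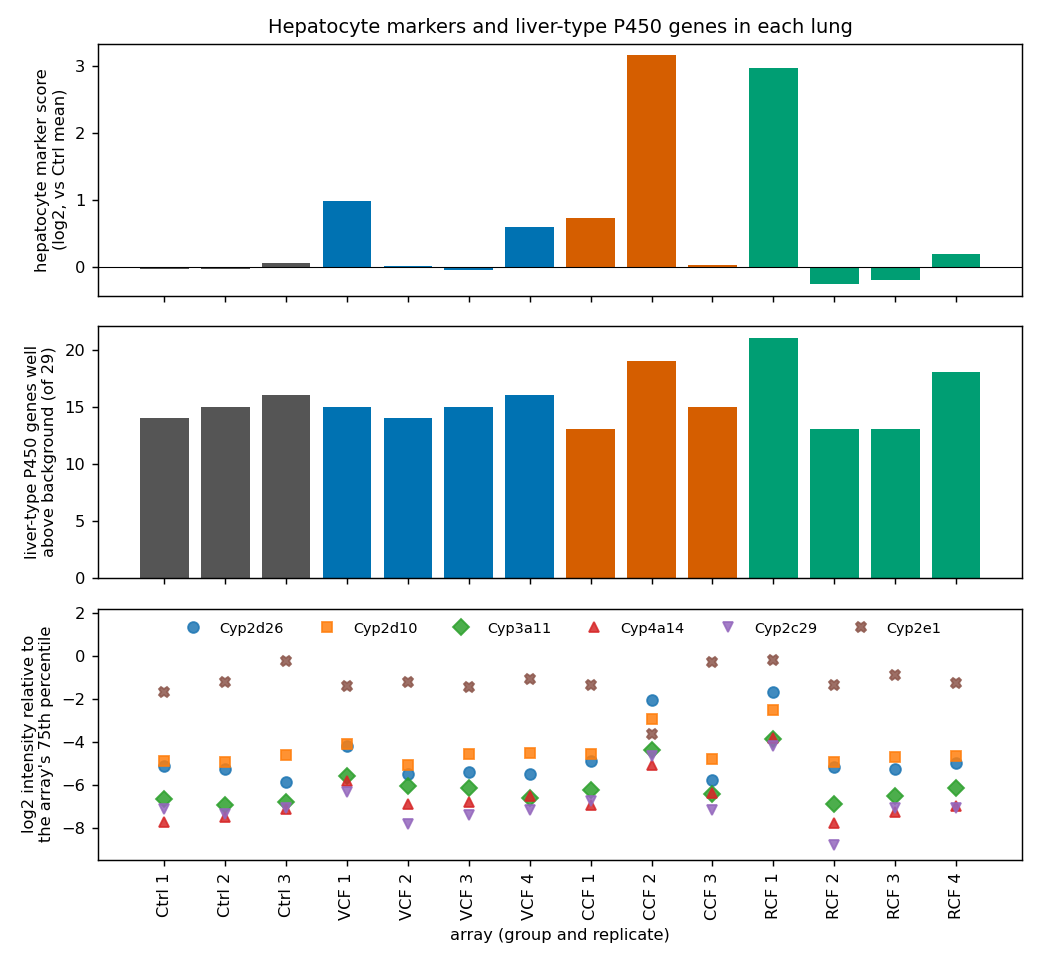
For each lung, the score of 13 hepatocyte markers (top, log2, relative to the Ctrl mean), the number of the 29 liver-type P450 genes well above background (middle) and the level of 6 of them (bottom, log2 intensity relative to the array's 75th percentile). CCF replicate 2 and RCF replicate 1 stand highest in the upper panels (3.16 and 2.98, 19 and 21 genes), and Cyp2e1 is low in CCF replicate 2 at -3.64.

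Cyp3a11 and Cyp4a14 were apart from Ctrl in more lungs than these. Cyp3a11, the main CYP3A enzyme of mouse liver, read -6.67, -6.92 and -6.81 in Ctrl, -5.58, -6.07, -6.16 and -6.63 in VCF, -6.25, -4.39 and -6.41 in CCF and -3.87, -6.91, -6.52 and -6.14 in RCF. VCF differed from Ctrl by 0.69 (SE 0.64), CCF by 1.12 (SE 0.69) and RCF by 0.94 (SE 0.64), with RCF overlapping with Ctrl. Without CCF replicate 2 the CCF value was 0.47, and without RCF replicate 1 the RCF value was 0.27. Cyp4a14, a fatty acid hydroxylase induced through PPAR alpha, was above background on no Ctrl lung and on 2 lungs of each fibre group. It read -7.74, -7.50 and -7.13 in Ctrl, -5.82, -6.88, -6.82 and -6.53 in VCF, -6.92, -5.06 and -6.38 in CCF and -3.82, -7.77, -7.27 and -6.998 in RCF. The bounds took all lungs of a fibre group at their measured signal, also those not above background. By these, the mean of Cyp4a14 was at least 1.28-fold above Ctrl in VCF, 1.68-fold in CCF and 1.32-fold in RCF. In limma its differences from Ctrl were 0.94 in VCF (SE 0.77), 1.34 in CCF (SE 0.82) and 0.99 in RCF (SE 0.77). Their unadjusted p in limma were 0.242, 0.129 and 0.220, so the bounds do not establish a rise. Only the RCF lungs overlapped with Ctrl. Without CCF replicate 2 the bound for CCF was 1.16-fold, and without RCF replicate 1 none was left for RCF. The opposite case was Cyp3a44, of the CYP3A group, which was above background on Ctrl replicates 1 and 2 only (-5.13 and -6.16, against -8.97 to -6.57 on the other 12 arrays) and was at least 1.56-fold higher in Ctrl than in VCF, 1.17-fold higher than in CCF and 1.61-fold higher than in RCF. Without Ctrl replicate 1 the bounds were 1.14-fold for VCF and 1.18-fold for RCF, and none was left for CCF.

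Cyp2e1, an ethanol-inducible enzyme of liver and some lung cells, went the other way on the array with the highest hepatocyte score. It stood at -3.64 on CCF replicate 2 and at -1.69 to -0.17 on the other 13. On that array Gabrp, a club cell list gene, stood at -3.96 against 0.96 to 2.86 elsewhere, and Gsta3, a glutathione transferase, at 4.92 against 5.88 to 6.45. Cyp2e1, Gabrp and the array were chosen after the values had been seen, and what these genes share was not tested.

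Of the genes for signalling lipids and hormones, the vitamin D enzyme Cyp2r1, which carries out an initial activation step in liver, read -3.42, -3.002 and -3.21 in Ctrl, -3.02, -3.47, -2.98 and -3.04 in VCF, -3.93, -3.50 and -3.49 in CCF and -3.44, -3.37, -3.70 and -3.10 in RCF. All CCF lungs lay below all Ctrl and all VCF lungs. CCF minus Ctrl was -0.43 (SE 0.19, limma adjusted p = 0.747) and CCF minus VCF was -0.51 (SE 0.18, limma adjusted p = 0.733). Without CCF replicate 1 the difference from Ctrl was -0.28. Of the other vitamin D genes, Cyp27b1, which activates the hormone, was above background on all 14 arrays and Cyp24a1, which degrades it, on none.

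Of the retinoic acid enzymes, which clear that signal, Cyp26b1 ranged widely within groups. It stood at 0.92, 0.57 and -1.43 in Ctrl, at 0.73, 0.99, 2.14 and -1.12 in VCF, at -0.90, 0.00 and 1.63 in CCF and at 2.06, 1.84, 1.61 and 0.51 in RCF. RCF minus Ctrl was 1.48 (SE 0.80, limma adjusted p = 0.970), a difference within the spread of the lungs. Cyp26a1 was above background on VCF replicate 3 and RCF replicate 4 only.

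Of 5 steroid-making genes only Cyp17a1, which makes androgen precursors, was above background on every array. Cyp11a1, which starts steroid synthesis by cutting the cholesterol side chain, was above background on 12 arrays and read -5.44, -5.74 and -6.74 in Ctrl, -5.08, -5.79, -4.32 and -6.01 in VCF, -5.42, -6.41 and -5.40 in CCF and -4.14, -4.60, -5.78 and -4.88 in RCF. RCF minus Ctrl was 1.12 (SE 0.48, limma adjusted p = 0.921), with overlapping lungs. Another probe of Cyp11a1 (A_51_P309727) gave 0.73 (SE 0.61, unadjusted p = 0.256 in limma). After centring it departed from the first by up to 0.89. The score of 5 adrenal cortex markers ran from -0.27 to 0.39 over the arrays. Cyp19a1, the aromatase, was above background on RCF replicate 1 only.

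Of 6 genes of bile acid and oxysterol metabolism, Cyp39a1, Cyp7b1, Cyp27a1 and Cyp46a1 were above background on all arrays. Cyp39a1, an oxysterol hydroxylase, ran from 1.40 to 1.91, and Cyp7b1, which acts on the same class of substrate, from 0.05 to 0.92. The differences of Cyp39a1 from Ctrl were -0.10 in VCF, -0.15 in CCF and -0.23 in RCF (SE 0.13, 0.14 and 0.13), with RCF at 1.503 to 1.53 and Ctrl at 1.47 to 1.91. Cyp4v3, a fatty acid hydroxylase, ran from 1.80 to 2.45, and its largest difference from Ctrl was -0.27 in VCF (SE 0.15). Cyp2g1, an enzyme known from olfactory mucosa, ran from -6.50 to -4.80, and CCF minus VCF was -0.62 (SE 0.28, limma adjusted p = 0.860). Of 6 olfactory and nasal epithelium markers 5 had a probe, 3 or 4 of which were above background on each array.

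Few arrays carried the remaining genes at the edge of detection. Cyp2b23, of the CYP2B group, was above background on VCF replicate 3 and RCF replicate 1, and Cyp2j5, an epoxygenase of kidney and liver, on RCF replicate 1 only. Cyp3a25 was above background on Ctrl replicate 3 and RCF replicates 1 and 4. RCF replicate 1 thus appears for 8 of the 10 genes that were above background on 1 to 4 arrays. Of all probes, 68.3% were above background on that array, against 63.1% to 70.6% on the other arrays.

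Partners and regulators of the P450 enzymes were read from lists of their own. None of 9 partner genes (reductase, cytochrome b5, ferredoxin, haem synthesis), 13 regulators or 3 P450 enzymes whose symbol has another form passed in any comparison in limma. The reductase Por, which feeds electrons to the microsomal enzymes, ran from 5.66 to 6.68. Of the partners the smallest p of the F test belonged to Fdx1 (limma adjusted p = 0.81), the ferredoxin of mitochondrial P450 enzymes, and to Fdxr (limma adjusted p = 0.826), its reductase. At an unadjusted p under 0.05 the partners had 0 genes in each comparison with Ctrl. The regulators had 2 of 13 in CCF against Ctrl, both higher (2.52% of all genes), Nr1i3, which encodes CAR, at 1.03 (SE 0.44) and Rxra, its partner receptor, at 0.35 (SE 0.16). Without CCF replicate 2, the array of highest hepatocyte score, these were 0.60 and 0.20, with unadjusted p of 0.193 and 0.223 in limma. The regulators had 0 in VCF and 0 in RCF against Ctrl. By the F test the smallest p among regulators were those of Tiparp (limma adjusted p = 0.77) and Rxra (limma adjusted p = 0.789).

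Of the 3 P450 enzymes with another form of symbol, Cyp51, the lanosterol demethylase of cholesterol synthesis, had the smallest p of the F test (limma adjusted p = 0.627). It differed from Ctrl by 0.29 in VCF (SE 0.15), -0.03 in CCF (SE 0.16) and 0.37 in RCF (SE 0.15). Ptgis, the prostacyclin synthase, was next (limma adjusted p = 0.88). Of 21 other oxidative and conjugating enzymes none passed. At an unadjusted p under 0.05 there were 0 higher and 1 lower in VCF against Ctrl (2.62% and 2.79% of all genes), 1 higher and 3 lower in CCF (2.52% and 3.12%) and 0 higher and 2 lower in RCF (3.08% and 3.03%). Fmo2, the flavin monooxygenase of lung, differed from Ctrl by 0.37 in VCF (SE 0.25), 0.69 in CCF (SE 0.26) and 0.03 in RCF (SE 0.25), and Gsta3 by -0.25 (SE 0.23), -0.69 (SE 0.24) and -0.11 (SE 0.23). Without CCF replicate 2 the CCF values were 0.51 for Fmo2 and -0.34 for Gsta3.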

How the data were processed

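Lung RNA of 14 mice was measured on 1-colour Agilent arrays. The authors' deposited scanner output gives, per the file headers, a processed intensity per spot from Agilent Feature Extraction 10.7.3.1, which is background-subtracted and not normalized between arrays, and the raw median spot and background intensity. The authors' deposited value table is on a log2 scale: each column equals log2 of its own array's processed intensity minus a constant, within 0.01 for 100% of 27496 probes, and 0 columns belong to other samples.

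After 1639 control spots were left out and 43379 spots averaged to 41174 probes, a level is the log2 processed intensity less the 75th percentile of its array. The scanner files carry no gene name column, so names came from RefSeq accessions: 24844 probes matched 1 symbol, and the others stay unnamed. A gene was read at its probe of highest mean. No P450 spot carried an outlier flag.

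The 4 groups of the labels entered 1 limma fit (limma 3.58.1, R 4.3.3, 10 residual and 2.39 prior degrees of freedom), tested on simulated data, with 6 pairs of groups and an F test. Promoters were aligned with biopython 1.88, figures drawn with matplotlib 3.10.9 and tables handled with pandas 2.3.3 and the R package data.table (version 1.17.8) in Python 3.11.15.

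Members and lists were chosen with earlier results of these data known. Named were all airway-expressed and aryl hydrocarbon receptor target genes, the 3 genes of smallest p per comparison, the 10 of highest level, the 5 of widest range, those above background on 1 to 4 arrays, examples of the hormone families and the 2 of smallest F test p in each pathway list. Other named genes were chosen after their values were seen. Marker lists covered club, ciliated and alveolar type 2 cells, hepatocytes, thymocytes, adipocytes, cardiac muscle, olfactory epithelium and adrenal cortex. None of their genes passed in any comparison. Scores ran from -0.32 to 0.59 for ciliated cells, -0.23 to 0.23 for alveolar type 2 cells, -0.57 to 3.24 for thymocytes, -0.57 to 2.49 for adipocytes and -0.34 to 0.34 for olfactory epithelium and -0.27 to 0.39 for adrenal cortex. Club cell and hepatocyte scores stand in the results. Cardiac muscle has no score because a marker spot was left out on 1 Ctrl array.

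Alternatives were normexp background correction with an offset of 50 (on median intensity, as no mean was used here), quantile normalization, the authors' table, other filters on dim probes, a block for slide or for replicate number, values within slides, a trended and robust prior, a fit of the compared groups only, the mean over a gene's probes, leaving out each array, and leaving out the 2 arrays high in liver genes.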

Additional observations from a re-analysis of the deposited data

Results flagged for a closer look

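In the 4-array groups VCF and RCF, 20 P450 genes and marker scores were looked at for a value far from the other 3. That makes 40 groups. Chance would single out about 1 in 20 among independent items chosen without regard to their values. These items were chosen in part by their p or their range on these same arrays, and some follow each other. The number found therefore cannot be set against that rate. There were 5 such values, in 4 lungs, by a gap to the nearest lung that exceeded Dixon's critical value as a share of the group's whole range. Cyp1b1 stood lowest of RCF in replicate 3 at -1.18, with the next at -0.90, and the RCF minus Ctrl difference without that lung was -0.45. Cyp2r1 stood lowest of VCF in replicate 2 at -3.47, with the next at -3.04, and CCF minus VCF without it was -0.63.

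The other 3 concern liver genes. Cyp2d26 stood highest of VCF in replicate 1 at -4.20, with the next at -5.38, and highest of RCF in replicate 1 at -1.68, with the next at -4.96. The hepatocyte marker score stood highest of RCF in replicate 1 at 2.98, with the next at 0.19. The high lung is the same in both RCF values. The part of the markers in the P450 values was not tested.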

How the results depend on the processing

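No P450 gene passed in any of the 7 tests under any alternative that gives a test, which makes 174 counts of 0. The lowest limma adjusted p of a P450 gene among them was 0.144, in RCF against Ctrl with the mean over a gene's probes. Of the values of single genes under an alternative, 579 kept the direction given in the report and 6 turned; the cause was not tested. The alternatives for Cyp1a1 against Ctrl, for genes without the 2 arrays high in hepatocyte markers and for the bounds were added after seeing the data. Cyp1a1 became 0.17 in CCF and 0.18 in VCF against Ctrl without Ctrl replicate 1 and 1.80 in VCF within slide 1. Leaving out 1 array at a time, Cyp1a1 ran from -1.95 to 0.17 in CCF and from -1.94 to 0.18 in VCF against Ctrl. In RCF against VCF, Cyp2j9 became -0.12 within slide 2, and Cyp3a25 became -0.0022 with normexp and -0.32 within slide 4. Without RCF replicate 1 the Cyp3a25 difference was 0.31. Without CCF replicate 1, CCF minus VCF was 0.21 for Cyp2b13, from 0.36, and -0.28 for Cyp2g1, from -0.62.

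The median difference of P450 genes moved by more than its spread over arrays (SD 0.11) in 6 cases. For CCF against Ctrl it was -0.38 with normexp, 0.11 without Ctrl replicate 1 and -0.15 within slide 1. For VCF it was 0.03 with normexp and 0.05 within slide 2, and for RCF 0.14 within slide 2. Normexp took the median of all probes in CCF against Ctrl from -0.01 to -0.23.

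With the replicate number as a block the count was 0 in each of the 7 tests, and Cyp1b1 in RCF against Ctrl was -0.54 (limma adjusted p = 0.695). Over 19 pairs of arrays with the same number, deviations from the group means correlated between -0.37 and 0.35, with a median of 0.05 and above 0.1 in 6. For 18 pairs on the same slide the correlation had a median of 0.12 and was above 0.1 in 10. For 42 pairs that shared neither, the median was -0.065 and 6 were above 0.1. Whether the numbers pair the lungs was not tested. Values within slides and the F test on compared groups only give no test. The number of arrays limits the precision, and 12 of the 72 genes were above background on none.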
